A study of Mus musculus with 8 samples.

Results

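The 10 genes described here encode proteins that make or remove reactive oxygen species in SV-LECs, an immortalized line of mouse lymphatic endothelial cells. They are Nox4, Cyba, Sod1, Sod2, Sod3, Cat, Gpx1, Gpx3, Nqo1 and Gclc, and they were taken from the count table by their gene symbols, which gave 10 of the 55471 genes listed. All 10 passed the filter on low counts, which kept 13818 genes for testing. The study compared SV-LECs left untreated (labelled svLEC_ctrl) with SV-LECs exposed to 10 ng/ml TGFβ1 for 72 h (svLEC_tgfb1), with 4 libraries in each group and 8 in all. Both groups were the same line, and the model is therefore a single immortalized line in culture. The paper gives high-glucose medium with serum for routine culture of the line, but its sequencing methods do not state the medium of the sequenced samples. The methods of the study call the 4 samples of a group technical replicates. Errors and p-values therefore cover the spread between these samples and not that between independent experiments. The question put to these genes was whether the transcripts of oxidant-producing and oxidant-removing enzymes differed between the groups.

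NADPH oxidases pass electrons from NADPH across a membrane to oxygen and release superoxide or hydrogen peroxide. Nox4 is the catalytic subunit of an oxidase that is known for being active without cytosolic activators, for releasing mainly hydrogen peroxide and for being induced by TGFβ in fibroblasts and other cells, and Cyba encodes p22phox, its membrane partner. Superoxide dismutases turn superoxide into hydrogen peroxide in the cytosol (Sod1), in mitochondria (Sod2) and outside the cell (Sod3). Catalase (Cat) and the glutathione peroxidases (Gpx1 in the cytosol, Gpx3 secreted) remove peroxide. Nqo1, a quinone reductase, and Gclc, the catalytic subunit of the first enzyme of glutathione synthesis, are classical targets of NRF2 (gene Nfe2l2), a transcription factor that binds antioxidant response elements in DNA.

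Total counts were between 18952504 and 26386941 per library, and 3 counts corresponded to 0.113 to 0.162 CPM (counts per gene relative to the TMM-adjusted library size). This limit covers counting error only. The first principal component held 88.8% of the variance between libraries and separated the groups. Among 8 known TGFβ response genes 7 were tested and all 7 rose, against 37.6% of all genes tested. The 1 not tested had at most 3 reads in any library. Those that rose included Acta2, smooth muscle actin, by 1.89 and Ltbp2, a latent TGFβ binding protein, by 2.63 on the log2 scale. The labelled cell type was checked against its markers. Of 8 endothelial markers 3 were tested, Tek, Kdr and Eng, of which 2 were higher after TGFβ1 and 1 was not called. Tie1 and Erg had 0 counts in all libraries, and Cdh5 and Emcn had at most 3. Of 7 lymphatic markers 2 were tested, Pdpn and Flt4, while Prox1, Lyve1 and Reln did not exceed 3 counts and Ccl21a was at 0. Most defining markers of lymphatic endothelium were thus at or near 0 in this line. Fibroblast and mural markers, of which 7 of 8 were tested, summed to 3244–4617 CPM in untreated and to 6551–7657 CPM in TGFβ1-treated libraries. Most of this sum was Col1a1, at 3459 ± 611 and 6057 ± 530 CPM (SD, n = 4). Of these 7 markers 5 were higher, among them Acta2, and 2 were lower, Pdgfra (log2 fold change -1.47) and Thy1 (-1.07). The endothelial markers summed to 70.2–78.2 and 162–170 CPM. Summed lymphatic markers lay at 344–382 and 337–348 CPM. Epithelial markers, 3 of 5 tested, summed to 34.2–40.7 and 38.0–45.1 CPM. Most of that was Krt14, which did not pass the test, while Krt8 and Krt18 were higher at few reads, 2 to 12 untreated and 16 to 47 treated, with log2 fold changes of 1.99 and 2.47. The part of these markers' cell types in the changes of the 10 genes was not tested. In bulk RNA, a lower value from fewer cells of a type cannot be told apart from less RNA per cell.

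Promoters were searched for binding motifs of NRF2 and of factors downstream of TGFβ1, and for a TATA box. They are printed for 4 of the genes whose transcripts differed between the groups. The RefSeq promoter table (GRCm38.p6, from 250 bases before to 50 after a gene's start) held 8 of the 10 genes, and Sod3 and Gclc were not in it. Both strands of each window were searched for an antioxidant response element (TGACNNNGC), a SMAD palindrome (GTCTAGAC), an AP-1 element (TGANTCA) and a TATA box (TATAAA). Exons annotated in GENCODE M21 were left out of the printed stretches, which are given 5′ to 3′ on the gene's strand in lower case, with motif matches in capitals.
Nox4, chr7:87246399-87246648, plus strand, which lies inside the annotated gene but in no exon: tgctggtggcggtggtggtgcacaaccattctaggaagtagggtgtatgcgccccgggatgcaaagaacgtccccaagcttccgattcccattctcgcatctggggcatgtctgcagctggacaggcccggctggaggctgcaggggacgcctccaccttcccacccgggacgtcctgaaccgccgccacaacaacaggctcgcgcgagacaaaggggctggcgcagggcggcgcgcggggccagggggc
Sod1, chr16:90220512-90220753, plus strand: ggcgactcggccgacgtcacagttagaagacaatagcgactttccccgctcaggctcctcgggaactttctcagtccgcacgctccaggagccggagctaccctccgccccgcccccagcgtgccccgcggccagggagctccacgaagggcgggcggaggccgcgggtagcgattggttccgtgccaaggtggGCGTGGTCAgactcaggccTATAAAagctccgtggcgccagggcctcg
Gpx3, chr11:54902604-54902771, plus strand, inside the annotated gene but in no exon: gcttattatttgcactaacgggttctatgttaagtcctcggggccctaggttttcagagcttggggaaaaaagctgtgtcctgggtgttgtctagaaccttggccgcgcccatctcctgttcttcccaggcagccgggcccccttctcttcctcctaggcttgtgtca
Nqo1, chr8:107403207-107403455, minus strand: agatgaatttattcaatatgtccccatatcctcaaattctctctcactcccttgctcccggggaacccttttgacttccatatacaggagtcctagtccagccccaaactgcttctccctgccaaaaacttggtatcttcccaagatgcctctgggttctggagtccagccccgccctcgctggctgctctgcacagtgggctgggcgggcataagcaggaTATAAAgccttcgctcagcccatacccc
The antioxidant response element was found in 1 of the 8 windows, that of Sod1, where it lay on the reverse strand 56 bases before the start. It occurred in 12.4% of the 32851 promoters of the table. A TATA box was found 37 bases before the start of Sod1 and 29 bases before that of Nqo1, against 13.6% of all promoters. Neither the SMAD palindrome (0.213% of all promoters) nor the AP-1 element (7.81%) was in any of the 8 windows. These matches describe letters in the windows and no measured binding. Bases farther upstream were not searched, so a missing match applies to the window only.

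After TGFβ1, 8 of the 10 genes were higher and 2 were lower at an FDR of 0.05 (edgeR likelihood ratio test, Benjamini-Hochberg over all genes tested). The background was high: 75.6% of all genes tested passed in either direction, 37.6% were higher and 38.0% were lower. Passing the test therefore says little about these 10 genes in particular. The 4 libraries of a group did not overlap those of the other for 9 of the 10 genes, against 69.8% of all genes tested, and Cat was the gene whose groups overlapped. The median log2 fold change of the 10 genes was 0.34, against -0.01 over all genes tested. By size, the changes of Gpx3 and Sod3 were larger in absolute value than those of 95.4% and 92.2% of all genes, that of Nox4 was larger than 64.4%, and those of the other 7 were larger than 22.7% to 51.6%. Gpx3, at 2 to 8 reads untreated and 18 to 31 treated, passed the filter on low counts only through its treated libraries. A gene this low without TGFβ1 could be tested only if it was higher with it. The place of Gpx3 among all genes and its part in the median therefore depend on the filter.

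**Figure D1:**
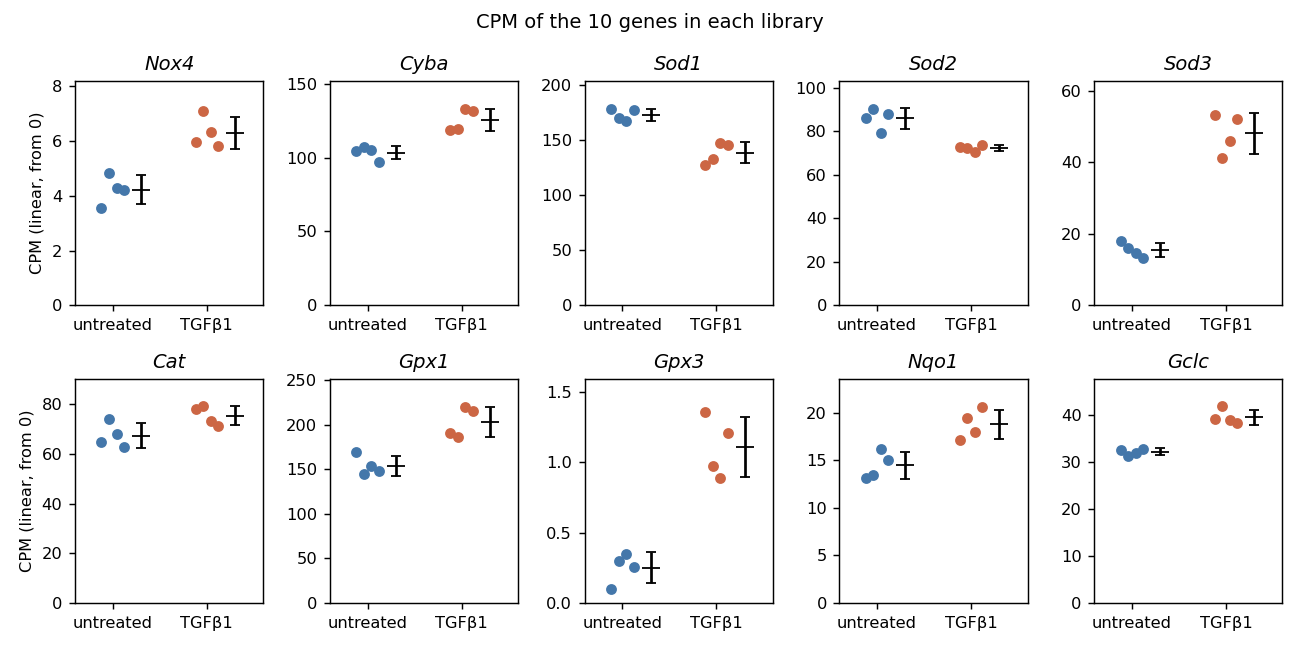
CPM (vertical axis, linear and starting at 0) of the 10 genes in each library, with a point for each of the 4 untreated (blue) and 4 TGFβ1-treated (red) libraries, and the mean with its SD at the right of each group. The groups are separate in every panel but that of Cat, and the TGFβ1-treated libraries lie below the untreated ones for Sod1 and Sod2.

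The oxidase genes Nox4 and Cyba both rose after TGFβ1. Nox4 (ENSMUSG00000030562, chr7:87246096-87398710, plus strand) had 3.57, 4.85, 4.28 and 4.21 CPM in the untreated libraries and 5.95, 7.11, 6.35 and 5.82 CPM after TGFβ1. The highest untreated library stayed below the lowest treated library. The mean went from 4.22 ± 0.524 to 6.31 ± 0.579 CPM (SD, n = 4), a 1.48-fold difference (log2 fold change 0.57, SE 0.124, 95% interval 0.32 to 0.81, edgeR FDR 9.43e-06). These are low values, with 74 to 129 reads in the untreated and 110 to 150 in the treated libraries. Cyba (ENSMUSG00000006519, chr8:122424776-122432930, minus strand) was far more abundant, at 105, 107, 105 and 96.7 CPM untreated and at 119, 120, 133 and 131 CPM after TGFβ1. Its groups did not overlap, and the mean rose from 103 ± 4.57 to 126 ± 7.50 CPM (SD, n = 4; log2 fold change 0.28, SE 0.0529, edgeR FDR 2.31e-07).

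The other genes of NADPH oxidases were taken from a list of 15. Of these, 6 were tested, of which 4 were higher and 2 were lower. Over all genes tested, 37.6% were higher and 38.0% were lower, so these few calls say little about the list. The median log2 fold change was 0.51, against -0.01 over all genes tested. The largest changes were those of Duox1, a calcium-activated oxidase that releases hydrogen peroxide, and of its maturation factor Duoxa1. Both passed the filter on low counts only through the TGFβ1-treated libraries, where they are high. The count of higher genes and the median of this list therefore depend on that filter. Duox1 had 6, 9, 3 and 5 reads in the untreated and 61, 80, 56 and 79 reads in the treated libraries. Its mean rose from 0.253 ± 0.0883 to 3.25 ± 0.482 CPM (SD, n = 4; log2 fold change 3.64, SE 0.326, edgeR FDR 7.23e-48). Duoxa1 had 1, 0, 4 and 3 reads untreated and 32, 48, 50 and 47 reads after TGFβ1. Its fitted log2 fold change was 4.46 (SE 0.530, edgeR FDR 2.41e-38), a value that depends on the prior count because the untreated libraries lie near 0. Both genes were thus close to the counting limit without TGFβ1 and clearly above it with TGFβ1.

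Counts of their neighbours were lower still. Duox2, a second oxidase of the same kind, had 0 to 1 reads untreated and 9 to 25 treated, and Duoxa2 had 0 and 3 to 9, so neither passed the filter on low counts. Of the exon bases of Duoxa1, 17.1% overlap Duoxa2 on the opposite strand, which are 42.8% of the exon bases of Duoxa2, and 4.51% of the 75-base stretches of Duox1 transcripts also occur in those of Duox2. The strand setting of the counting is not given in the sources used here, so reads of overlapping genes on opposite strands cannot be assigned with certainty.

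The remaining subunits described here moved less. Rac1, a small GTPase that activates several oxidases, fell by 0.15 on the log2 scale from 590 ± 18.8 to 532 ± 10.0 CPM (SD, n = 4; edgeR FDR 0.00021). Poldip2, a protein that binds p22phox, fell by 0.19 (edgeR FDR 4.33e-05). Cybc1, a chaperone of p22phox complexes, rose from 56.8 ± 1.74 to 81.1 ± 2.72 CPM (SD, n = 4; log2 fold change 0.51, edgeR FDR 2.15e-26). Noxo1, an organizer subunit, had a log2 fold change of 0.51 (edgeR FDR 0.000246), but 70.4% of its exon bases overlap Tbl3 on the opposite strand, a gene with 820 to 1423 reads per library.

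For the other catalytic subunits, reads were at or near 0. Nox1 had 1 to 8 reads untreated and 1 to 5 treated, Cybb, the phagocyte oxidase, had 0 to 2 in both groups, and Nox3 had 0 throughout. The partner subunits Ncf4 and Rac2 were also at 0 in all libraries, Noxa1 had 0 and 0 to 1 reads, and Ncf1 had 0 to 2 and 1 to 4. None of these genes passed the filter on low counts, so the main comparison did not test them. Of 9 phagocyte markers, Cd68 and Csf1r were tested and both were higher after TGFβ1, with the list summing to 6.02–8.38 CPM untreated and 16.3–18.8 CPM treated. The defining leukocyte markers Ptprc, Itgam and Cybb had at most 3 reads in any library, and Adgre1 and Ncf4 had 0.

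**Figure D2:**
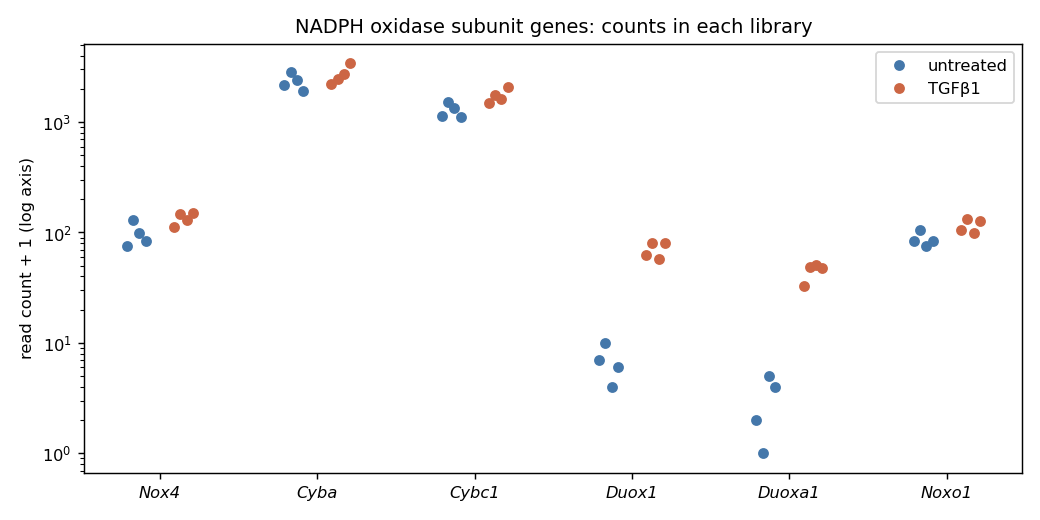
Read counts plus 1 (vertical log axis) of 6 NADPH oxidase genes in each of the 4 untreated (blue) and 4 TGFβ1-treated (red) libraries. Duox1 and Duoxa1 lie at 0 to 9 reads untreated and at 32 to 80 reads after TGFβ1, while Cyba and Cybc1 lie at 1118 reads or more in both groups.

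The 3 superoxide dismutases did not move together: Sod3 rose and Sod1 and Sod2 fell. Sod3 (ENSMUSG00000072941, chr5:52363791-52371418, plus strand), the extracellular enzyme, had 17.8, 16.0, 14.6 and 13.1 CPM untreated and 53.3, 41.0, 45.8 and 51.9 CPM after TGFβ1. The lowest treated library was above the highest untreated one by more than the range within either group. The mean went from 15.4 ± 2.03 to 48.0 ± 5.67 CPM (SD, n = 4), a 3.12-fold rise (log2 fold change 1.64, SE 0.0983, 95% interval 1.45 to 1.83, edgeR FDR 2.47e-60). With 258 to 1338 reads per library it was well above the counting limit.

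Sod1 and Sod2 fell by amounts that were small next to the rise of Sod3. Sod1 (ENSMUSG00000022982, chr16:90220754-90226329, plus strand), the cytosolic copper and zinc enzyme, had 178, 169, 167 and 177 CPM untreated and 127, 133, 147 and 145 CPM treated. Its mean fell from 173 ± 5.45 to 138 ± 9.55 CPM (SD, n = 4; log2 fold change -0.32, SE 0.0519, edgeR FDR 1.54e-09). Sod2 (ENSMUSG00000006818, chr17:13006846-13040063, plus strand), the mitochondrial manganese enzyme, had 86.1, 90.3, 79.4 and 88.1 CPM untreated and 72.6, 72.4, 70.6 and 73.7 CPM treated. Its mean fell from 86.0 ± 4.70 to 72.3 ± 1.32 CPM (SD, n = 4; log2 fold change -0.25, SE 0.0503, edgeR FDR 1.54e-06). In both genes every treated library was below every untreated library. Of the 75-base stretches of Sod2 transcripts 16.2% also occur in other genes, mainly in AC166110.4, which had 0 counts, and in Rps6ka2, whose log2 fold change was -0.09 (edgeR FDR 0.355). For Sod1 this share was 1.71%, shared with the pseudogene Gm8566, which had 31 to 86 reads per library.

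The balance between the dismutases therefore differed, while the ranges of their sum overlapped. Sod3 took 5.61 ± 0.677% of the reads of the 3 genes in untreated SV-LECs (SD, n = 4; range 4.71% to 6.33%) and 18.6 ± 1.96% after TGFβ1 (range 16.7% to 21.0%). The share of Sod1 was 63.0 ± 1.11% and 53.4 ± 2.31%, and that of Sod2 was 31.4 ± 1.08% and 28.0 ± 1.21%. The summed level was 274 ± 9.19 CPM untreated and 258 ± 10.8 CPM treated, with ranges of 261 to 282 and 246 to 271 CPM. These read shares are not corrected for gene length. Per exon length, the share of Sod3 was 7.32 ± 0.865% untreated and 23.4 ± 2.46% treated, and that of Sod2 was 15.3 ± 0.653% and 13.2 ± 0.688%. Per coding length, the share of Sod3 was 3.90 ± 0.478% and 13.5 ± 1.56%, and that of Sod2 was 24.7 ± 0.929% and 23.1 ± 1.12%. Sod3 rose in share under each length, but its order relative to Sod2 after TGFβ1 depended on the length used.

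**Figure D3:**
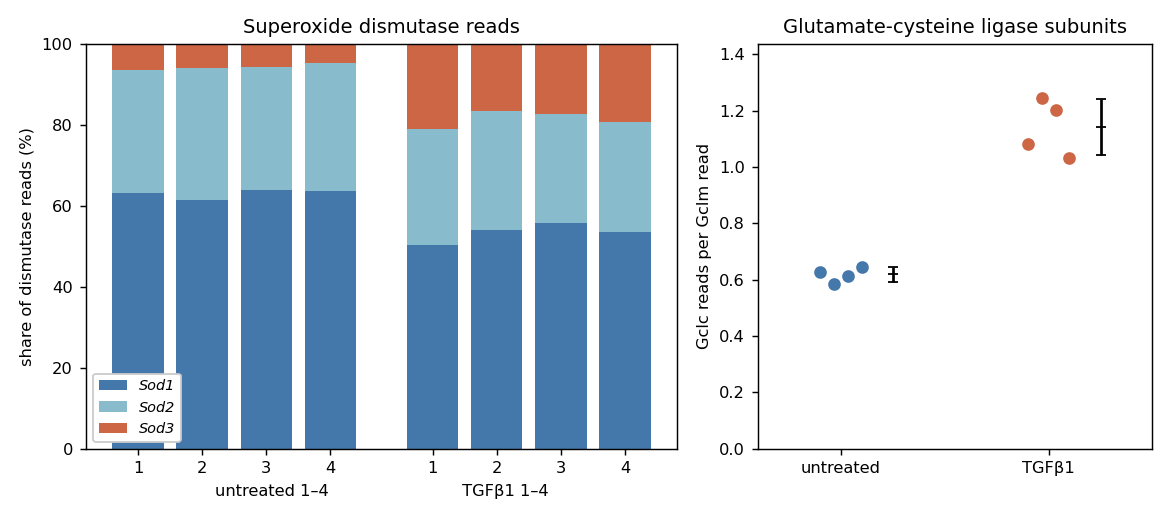
Left: share of the reads of the 3 superoxide dismutase genes (vertical axis, percent) in each library, stacked as Sod1, Sod2 and Sod3. Right: Gclc reads per Gclm read in each library (vertical axis from 0), with the mean and SD of the 4 untreated (blue) and 4 TGFβ1-treated (red) libraries. The Sod3 share lies at 4.71% to 6.33% untreated and 16.7% to 21.0% treated, and the Gclc ratio at 0.585 to 0.646 and 1.03 to 1.24.

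Of 7 tested genes that deliver copper to dismutases and other enzymes, 5 were higher and 2 were lower. Over all genes tested, 37.6% were higher and 38.0% were lower, so these few calls say little about the list. The median log2 fold change was 0.41, against -0.01 over all genes tested. Ccs, the chaperone that loads copper into Sod1, had 38.8, 42.1, 45.2 and 41.4 CPM untreated and 70.8, 85.3, 73.6 and 69.8 CPM treated. Its log2 fold change was 0.84 (SE 0.0709, edgeR FDR 3.15e-31), opposite in direction to that of Sod1. Sod1 reads per Ccs read were 4.14 ± 0.381 untreated and 1.86 ± 0.232 treated (SD, n = 4), with no overlap between the groups. Atox1, the chaperone for the secretory pathway, rose from 27.5 ± 0.458 to 47.9 ± 2.76 CPM (SD, n = 4; log2 fold change 0.80, edgeR FDR 8.34e-44). The copper exporter Atp7b fell by 0.68 on the log2 scale (edgeR FDR 0.000314), at only 41 to 61 reads untreated and 23 to 33 treated. Atp7a, a more abundant copper exporter, went the other way, from 32.7 ± 1.27 to 43.5 ± 2.63 CPM (SD, n = 4; log2 fold change 0.41, edgeR FDR 1.22e-11). The copper importer Slc31a1 fell by 0.19 (edgeR FDR 0.000145).

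Over the 8 libraries, the genes whose log2 CPM followed that of Sod3 most closely were Hspg2, which encodes the basement membrane proteoglycan perlecan, Miga2, which acts in mitochondrial fusion, and Hand2, a transcription factor. Their Pearson r values were 0.998, 0.998 and 0.997. Of the 13817 other genes tested 69 had an r above 0.99. All of these values share the same 8 libraries in their separated groups, and they are given as a description.

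Among the enzymes that remove peroxide, Gpx1, Gpx3 and Cat were higher after TGFβ1, to different degrees. Gpx1 (ENSMUSG00000063856, chr9:108338903-108340343, plus strand) had 169, 144, 154 and 148 CPM untreated and 191, 186, 219 and 215 CPM treated. The groups did not overlap, and the mean rose from 154 ± 11.0 to 203 ± 16.8 CPM (SD, n = 4; log2 fold change 0.40, SE 0.0642, edgeR FDR 1.04e-09). Gpx3 (ENSMUSG00000018339, chr11:54902453-54910377, plus strand), the secreted enzyme, had only 2, 8, 8 and 5 reads untreated and 25, 20, 18 and 31 reads treated. In CPM the mean rose from 0.250 ± 0.110 to 1.10 ± 0.213 (SD, n = 4), a 4.25-fold rise with a wide interval (log2 fold change 2.09, SE 0.345, 95% interval 1.41 to 2.76, edgeR FDR 2.75e-11). It was the largest change of the 10 genes and also the least precise, and Gpx3 passed the filter on low counts only through its treated libraries.

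Cat was the weakest of the 10 calls. Cat (ENSMUSG00000027187, chr2:103453849-103485160, minus strand), which encodes the peroxisomal enzyme catalase, had 64.9, 74.1, 68.0 and 62.8 CPM untreated and 78.2, 79.5, 73.3 and 71.1 CPM treated. The second untreated library lay above 2 of the treated ones. The mean was 67.5 ± 4.94 CPM untreated and 75.5 ± 3.96 CPM treated (SD, n = 4; log2 fold change 0.16, SE 0.0606, 95% interval 0.04 to 0.28, edgeR FDR 0.012). Scaling to total counts ended this call, at 0.09 (edgeR FDR 0.148), as did leaving out untreated library 4 (0.12, edgeR FDR 0.0537) or TGFβ1-treated library 2 (0.13, edgeR FDR 0.0504).

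**Figure D4:**
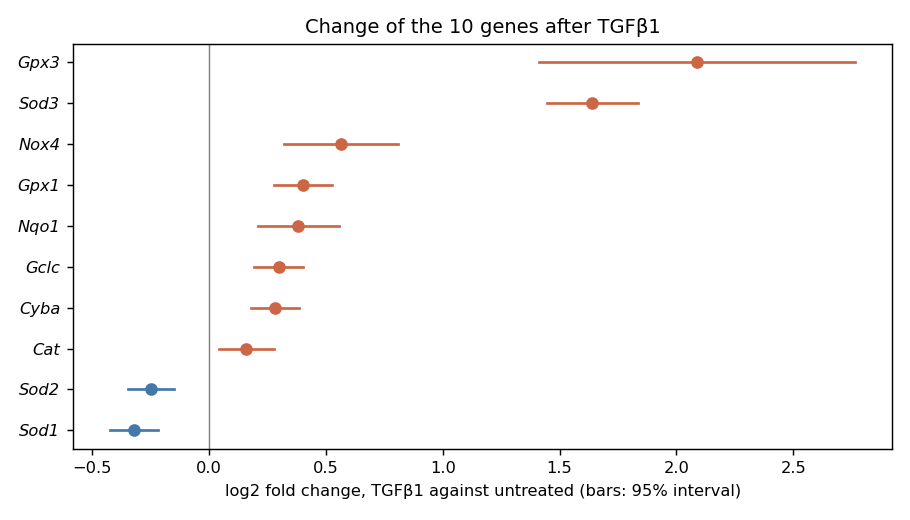
Log2 fold change of the 10 genes, TGFβ1-treated against untreated libraries (horizontal axis), as points with 95% intervals from the edgeR fit on 4 libraries per group. Gpx3 (2.09) and Sod3 (1.64) lie farthest to the right, Gpx3 with the widest interval, Cat (0.16) lies closest to 0, and Sod2 (-0.25) and Sod1 (-0.32) lie to the left of it.

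The rest of the peroxide-removing genes showed no common direction. Of 10 tested, 3 were higher, 4 were lower and 3 did not pass, with a median log2 fold change of -0.01. The called share of 70% was near the 75.6% over all genes tested. Prdx6, a peroxiredoxin that reduces phospholipid peroxides, rose by 0.32 (edgeR FDR 3.85e-07) and Gpx8, a peroxidase of the endoplasmic reticulum, by 0.16 (edgeR FDR 0.00102). The peroxiredoxins Prdx2 of the cytosol and Prdx4 of the secretory pathway fell by 0.48 and 0.43 (edgeR FDR 1.25e-28 and 5.22e-22). Gpx4, which reduces lipid peroxides in membranes, fell from 119 ± 7.73 to 89.3 ± 2.16 CPM (SD, n = 4; log2 fold change -0.41, edgeR FDR 2.15e-14). Gpx1 reads per Gpx4 read thus went from 1.29 ± 0.0574 to 2.27 ± 0.134 (SD, n = 4), with separate ranges. Of the 75-base stretches of Gpx4 transcripts, 29.8% occur in other genes, mainly in the pseudogene Gpx4-ps2, which had 36 to 76 reads per library.

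Gpx1, Gpx3 and Gpx4 are selenoproteins. Of 10 tested genes that supply selenocysteine, 7 fell, 1 rose and 2 did not pass. The called share of 80% was near the 75.6% over all genes tested, of which 38.0% were lower. The median log2 fold change of the list was -0.38, against -0.01 over all genes tested. Sephs1, a paralog of selenophosphate synthetase, fell by 0.64 and Eefsec, the elongation factor that brings selenocysteine to the ribosome, by 0.66 (edgeR FDR 8.21e-39 and 1.96e-26). The gene that rose was Secisbp2, whose protein binds the selenocysteine insertion element of these mRNAs (log2 fold change 0.56, edgeR FDR 1.42e-10). Of 10 thioredoxin and glutaredoxin genes 5 were higher, 3 were lower and 2 did not pass. Their called share of 80% was also near the 75.6% over all genes tested. Glrx3 and Glrx5, glutaredoxins of iron-sulfur metabolism, rose by 0.53 and 0.57 (edgeR FDR 2.23e-24 and 1.93e-08). Txnip, an inhibitor of thioredoxin, fell by 0.60 and Txnrd3, a thioredoxin reductase, by 0.67 (edgeR FDR 1.46e-16 and 5.68e-10).

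The NRF2 targets Nqo1 and Gclc both rose, by less than 1.5-fold. Nqo1 (ENSMUSG00000003849, chr8:107388225-107403206, minus strand) had 13.2, 13.5, 16.2 and 15.1 CPM untreated and 17.2, 19.5, 18.0 and 20.6 CPM treated. Its groups came close without overlapping, and the mean rose from 14.5 ± 1.41 to 18.8 ± 1.53 CPM (SD, n = 4; log2 fold change 0.38, SE 0.0888, edgeR FDR 3.18e-05). Gclc (ENSMUSG00000032350, chr9:77754535-77794485, plus strand) had 32.7, 31.3, 32.1 and 32.9 CPM untreated and 39.2, 42.0, 39.0 and 38.4 CPM treated. Its replicates were the tightest of the 10 genes in the untreated group relative to the mean, which rose from 32.2 ± 0.720 to 39.6 ± 1.59 CPM (SD, n = 4; log2 fold change 0.30, SE 0.0535, edgeR FDR 5.06e-08).

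The partner of Gclc moved the other way. Gclm, the modifier subunit of the same ligase, had 52.0, 53.5, 52.2 and 50.9 CPM untreated and 36.3, 33.7, 32.4 and 37.1 CPM treated, and fell by 0.58 on the log2 scale (SE 0.0559, edgeR FDR 1.53e-24). Gclc reads per Gclm read were 0.618 ± 0.0259 untreated and 1.14 ± 0.0996 treated (SD, n = 4), with ranges of 0.585 to 0.646 and 1.03 to 1.24. Of 12 other glutathione genes tested, 5 were higher, 5 were lower and 2 did not pass. The called share of 83.3% compares with 75.6% over all genes tested. Gss, which completes glutathione synthesis, rose from 30.2 ± 1.81 to 64.1 ± 3.09 CPM (SD, n = 4; log2 fold change 1.08, edgeR FDR 2.11e-73), although 6.68% of its exon bases overlap Acss2 on the opposite strand. Ggt5, a gamma-glutamyltransferase that cleaves extracellular glutathione conjugates, had 3 to 7 reads untreated and 65 to 96 treated (log2 fold change 4.17, SE 0.370, edgeR FDR 3.09e-51). Ggt5 passed the filter on low counts only through its treated libraries, so it could be tested only if it was higher there. The count of higher glutathione genes depends on the filter to that extent. Slc7a11, the cystine importer that supplies cysteine for glutathione, fell by 1.25 (edgeR FDR 3.46e-76), and Chac1, which degrades glutathione, fell by 1.75 (edgeR FDR 2.21e-101).

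NRF2 targets as a list did not share the direction of Nqo1 and Gclc. Of 18 other targets tested, 7 were higher, 6 were lower and 5 did not pass, with a median log2 fold change of -0.00441. The called share of 72.2% was near the 75.6% over all genes tested, of which 37.6% were higher and 38.0% were lower. These counts therefore say little about NRF2 targets in particular. Hmox1, which degrades heme, rose from 158 ± 4.13 to 282 ± 12.3 CPM (SD, n = 4; log2 fold change 0.83, edgeR FDR 1.5e-78) and Ephx1, an epoxide hydrolase, rose by 0.51 (edgeR FDR 1.76e-33). Slc7a11 belongs to this list too, and Fth1, the ferritin heavy chain, fell by 0.49 (edgeR FDR 3.26e-25). Among NRF2 and its regulators 3 were higher, 6 were lower and 3 did not pass of 12 tested. Their called share of 75% was near the 75.6% over all genes tested. Nfe2l2 itself was lower, at 137 ± 2.90 CPM untreated and 110 ± 6.30 CPM treated (SD, n = 4; log2 fold change -0.32, edgeR FDR 9.27e-11), and so was Keap1, the protein that marks NRF2 for degradation (log2 fold change -0.31, edgeR FDR 3.5e-07). Mafk, a small Maf protein that pairs with NRF2 or BACH1 on DNA, rose by 1.54, and Bach1, a repressor at the same elements, rose by 0.41 (edgeR FDR 1.51e-140 and 5.8e-20). The related factors Nfe2l3 and Nfe2l1 fell by 1.92 and 0.53 (edgeR FDR 2.32e-68 and 2.59e-33).

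Glutathione transferases, which couple glutathione to other compounds, were lower for 8, higher for 5 and not called for 2 of the 15 tested. The called share of 86.7% compares with 75.6% over all genes tested, of which 38.0% were lower and 37.6% were higher. Gsta4, which acts on lipid peroxidation products, fell by 2.94 on the log2 scale, from 31.1 ± 3.24 to 4.04 ± 0.424 CPM (SD, n = 4; edgeR FDR 5.2e-160), and Mgst1, a membrane-bound enzyme, fell by 1.03 (edgeR FDR 7.34e-48). Gsto1 rose from 77.7 ± 3.92 to 177 ± 9.85 CPM (SD, n = 4; log2 fold change 1.19, edgeR FDR 1.41e-107) and Gstt3 rose by 0.48 (edgeR FDR 5.68e-11). Of 10 other oxidant-producing genes tested, 5 were higher and 3 were lower, a called share of 80% next to the same background. Aox1, an aldehyde oxidase, rose from 1.70 ± 0.366 to 17.4 ± 2.03 CPM (SD, n = 4; log2 fold change 3.37, edgeR FDR 1.24e-120), and P4hb, a protein disulfide isomerase, rose by 0.82 (edgeR FDR 5.61e-101). Ero1a, the oxidase that recharges such isomerases and is listed in the table as Ero1l, fell from 403 ± 18.6 to 145 ± 4.35 CPM (SD, n = 4; log2 fold change -1.48, edgeR FDR 9.5e-224), and the monoamine oxidase gene Maoa fell by 0.92 (edgeR FDR 7.64e-77).

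**Figure D5:**
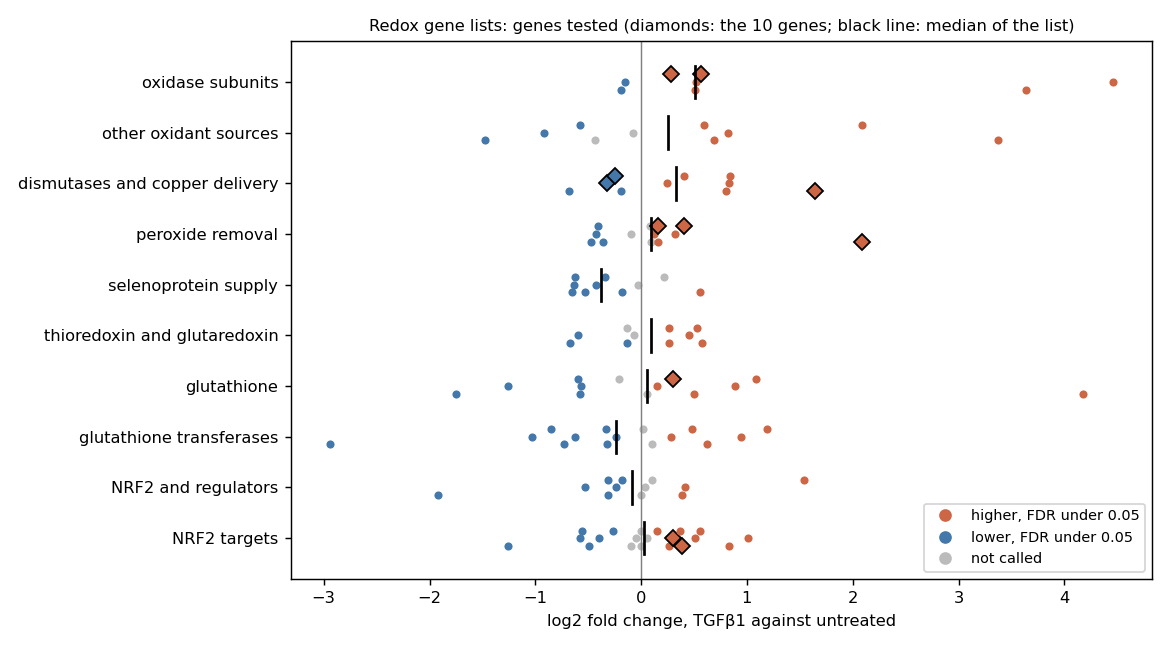
Log2 fold change after TGFβ1 (horizontal axis) of every tested gene in 10 lists of redox genes (rows), coloured red where higher, blue where lower and grey where not called at an FDR of 0.05. Diamonds mark the 10 genes and black lines the list medians. The oxidase subunits have the highest median (0.51) and the selenoprotein supply genes the lowest (-0.38). The oxidase median depends on the filter on low counts, which Duox1 and Duoxa1 passed only through the TGFβ1-treated libraries.

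Over all these lists, 104 of 123 genes besides the 10 were tested, of which 41 were higher and 44 were lower, with a median log2 fold change of -0.02. The called share of 81.7% compares with 75.6% over all genes tested.

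Between genes, levels were compared as CPM per kilobase of exon. In untreated SV-LECs the order was Gpx1 (107 ± 7.64), Cyba (99.5 ± 4.40), Sod1 (43.5 ± 1.37), Cat (25.8 ± 1.89), Nqo1 (9.33 ± 0.905), Sod2 (8.59 ± 0.469), Gclc (8.56 ± 0.191), Sod3 (4.12 ± 0.542), Nox4 (0.499 ± 0.0618) and Gpx3 (0.138 ± 0.0605), each as a level with its SD over 4 libraries. The libraries of Gpx1 and Cyba overlapped, and so did those of Nqo1, Sod2 and Gclc, so these were not separated. After TGFβ1, Sod3 stood at 12.8 ± 1.52, not separated from Nqo1 at 12.1 ± 0.983. Sod2 was at 7.23 ± 0.132, but its place relative to Sod3 turned with the length used, since per coding length the treated libraries had 109 ± 1.99 for Sod2 and 63.8 ± 7.54 for Sod3, and per longest transcript the genes overlapped at 12.3 ± 0.226 and 12.8 ± 1.52. Nox4 (0.745 ± 0.0683) and Gpx3 (0.609 ± 0.118) stayed last and overlapped each other. Per coding length Sod1 also came first in untreated libraries at 374 ± 11.8 CPM per kilobase, ahead of Gpx1 at 255 ± 18.3.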

How the data were processed

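RNA of 4 untreated and 4 TGFβ1-treated SV-LEC samples was sequenced by the authors from stranded poly(A) libraries as single-end reads of 75 bases. The authors deposited raw counts of reads per gene, on GRCm38. The submitters' processing notes name bcl2fastq 2.20.0.422, STAR 2.7.3a and featureCounts 1.5.1. The annotation release and strand setting are not given in the sources used here.

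The comparison used edgeR 4.0.16 under R 4.3.3 (filterByExpr, TMM, glmFit and glmLRT, two-sided, FDR 0.05 by Benjamini-Hochberg over 13818 genes). Groups came from the sample labels. CPM used normalized library sizes, and ± is the SD. Gene positions, lengths and overlaps came from GENCODE M21. The steps were tested on simulated data. Alternatives were the quasi-likelihood test, DESeq2 1.42.0, its size factors, total counts, no filter, 1 CPM in at least 4 libraries, FDR 0.01, a replicate block, other gene lengths and each library left out.

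The 10 genes and the lists were chosen with earlier results of these data known. From each list the text names up to 2 genes per direction with the largest likelihood ratio among called genes whose groups did not overlap, and untested oxidase subunits. For Sod3, which had the largest likelihood ratio of the 10 genes, it names the 3 genes with the highest r. Cybc1, Noxo1, Gclm, Gpx4, Nfe2l2, Keap1 and Atp7a were named after their values were seen. Markers and genes sharing sequence are named for that reason. 1 list gene is not reported here.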

Additional observations from a re-analysis of the deposited data

Results flagged for a closer look

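The check covered 56 genes, which were the 10 genes, those named by the rule and 6 others named after their values were seen. Atp7a was not in the check. In 4 of 112 groups of 4 libraries a library stood apart from the rest of its group by more than Dixon's 95% critical value, which chance gives in about 1 in 20 groups. None was in the 10 genes. Prdx2 was at 148 CPM in TGFβ1-treated library 2, with the nearest library at 156 CPM. Gsta4 was at 3.41 CPM in the same library, with the nearest at 4.18 CPM. Cybc1 was at 85.2 CPM in that library too, with the nearest at 80.1 CPM. Nfe2l1 was at 526 CPM in TGFβ1-treated library 4, with the nearest at 538 CPM. All these values are on the side of the group mean that is farther from the untreated libraries.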

How the results depend on the processing

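Except for Cat, each of the 10 genes kept its direction and its call in every alternative run, 16 for each and 15 for Gpx3, which a minimum of 1 CPM in 4 libraries left out. Cat lost its call in 5: total counts (log2 fold change 0.09), no filter on low counts (0.13, edgeR FDR 0.0862), without untreated library 4 (0.12), without TGFβ1-treated library 2 (0.13) and at an FDR of 0.01. Its FDR lay between 0.000792 and 0.148 over all alternatives, and the causes of these losses were not tested. Of the 10 genes, 7 to 8 were higher and 2 were lower in each alternative that left out a library. The other pathway genes gave 40 to 42 higher and 43 to 45 lower calls there. With total counts 37 of them were higher and 49 lower, and the median of all genes moved by -0.0672. Libraries with the same number did not deviate together (r from -0.193 to -0.0336), and between unlike numbers r ran from -0.227 to 0.250. These values cannot show whether the libraries were handled as pairs, and the labels do not describe pairs. With the replicate block 8 of the 10 genes were higher and 2 lower, and over all genes 5075 were higher and 5077 lower. With coding length in place of exon length, 2 of the 10 genes kept their rank in untreated and 4 in TGFβ1-treated libraries. With the longest transcript, 7 did in each group. Depth limits the precision for Gpx3, Duox1, Duoxa1 and Ggt5, which had at most 9 reads in any untreated library.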
